A study of Homo sapiens with 4 samples.

Results

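The genes described here are 43 genes that copy DNA in S phase, out of 19775 genes that at least 1 probe set of the array names alone. They were listed by name: 16 for origin licensing and the replicative helicase, 3 for S phase entry and its checkpoint, 17 for polymerases, the sliding clamp and the lagging strand, 4 for nucleotide supply and 3 for histone supply. Each gene was read from the brightest probe set that names it alone, and counts as measured in a comparison where its signal was at least 100 on 1 of the 2 arrays compared. Affymetrix U133 Plus 2.0 arrays measured RNA of 2 established human breast cancer cell lines, MDA-MB-231, a triple-negative line with mesenchymal features, and T-47D, a luminal line. Cells of each line were kept for 24 h with 100 μM JPH203, an inhibitor of the amino acid transporter LAT1 (SLC7A5), or with Captisol, the cyclodextrin carrier, at that same concentration as control. Every condition was hybridised once, so the ratios carry neither an error nor a p-value, no replicate checks them, and a size is that between single arrays. Pairs of signals are given with the control array first and the JPH203 array after it. Bulk RNA was measured, so fewer cells in S phase and less RNA per cell cannot be told apart.

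Before S phase, the origin recognition complex, CDC6 and CDT1 load rings of MCM2 to MCM7 on DNA, a step called licensing. CDC45 and the GINS complex then turn each ring into a working helicase, primase and DNA polymerase alpha start each strand, and PCNA, loaded by replication factor C, holds the polymerases on DNA. Ribonucleotide reductase, thymidylate synthase and thymidine kinase supply the nucleotides. Many of these genes are known targets of E2F transcription factors and are transcribed mainly around the start of S phase.

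The deposited values carry a common scale. The trimmed mean of each array, with 2% of values left out at each end, was 100.0, and 10831 to 11857 probe sets reached a signal of 100. As a check of the labels, the T-47D control array was at least 2-fold above the MDA-MB-231 one for 8 of 8 luminal markers and at least 2-fold below it for the 7 mesenchymal markers measured, of 8 listed. The ACTB 3′ to 5′ ratio, a sign of RNA integrity, was 1.45 and 1.44 in MDA-MB-231 cells without and with JPH203, and 1.39 and 1.72 in T-47D cells. The poly-A spike-in transcripts, added to the RNA before labelling, read 0.927 times as bright with JPH203 as without in MDA-MB-231 cells and 1.56 times in T-47D cells, and 0.307 times as bright on the MDA-MB-231 as on the T-47D control array. A second set of added controls, the hybridization spike-ins, moved the same way, at 0.975, 1.24 and 0.688 in that order. The cause of these shifts was not tested.

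Promoter sequences show how far the genes share the letters of E2F and CCAAT sites. RefSeq windows of GRCh38.p14, from 250 bases before to 50 bases after each gene start, had an entry for 37 of the 43 genes. The words TTTCCCGC, TTTGGCGC, TTTCGCGC and TTTGCCGC, which fit the E2F consensus, and the word CCAAT were searched on both strands, and the words may overlap each other. An E2F word was found for 19 of the 37 genes (51.4%), against 3.99% of 27305 genes with an entry and 7.19% of the 6177 of them measured in T-47D cells. The share was 9 of 13 licensing and helicase genes, 3 of 3 S phase entry genes, 6 of 14 polymerase and lagging strand genes, 1 of 4 nucleotide supply genes and 0 of 3 histone supply genes. CCAAT was found for 22 of 37 genes (59.5%), against 39.7% of all genes with an entry and 44.7% of the 6177 measured in T-47D cells. A match describes the letters of these windows and is not evidence of binding.

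The 180 bases before the start are shown for 4 genes that fell in T-47D cells past 1.5-fold or 2-fold, for PCNA, and for a pair of genes that rose 1.5-fold there, PRIM1 and RFC4, neither of them past 1.5-fold when scaled to the poly-A spike-ins. They lie at chr2:135876444-135876623 (MCM6, minus strand), chr1:212035568-212035747 (DTL, plus strand), chrX:24693738-24693917 (POLA1, plus strand), chr2:10122559-10122738 (RRM2, plus strand), chr20:5126623-5126802 (PCNA, minus strand), chr12:56752324-56752503 (PRIM1, minus strand) and chr3:186806483-186806662 (RFC4, minus strand) of GRCh38.p14. All are upstream of the transcript start of the named gene, and the RRM2 stretch belongs to the one of its RefSeq windows that held more words. Each is written 5′ to 3′ along the gene's strand, with the E2F words and CCAAT or its complement ATTGG in capitals.
MCM6: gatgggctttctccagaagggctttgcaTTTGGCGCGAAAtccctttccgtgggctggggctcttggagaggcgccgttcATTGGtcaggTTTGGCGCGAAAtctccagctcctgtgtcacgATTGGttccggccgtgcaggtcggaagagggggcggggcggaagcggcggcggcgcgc
DTL: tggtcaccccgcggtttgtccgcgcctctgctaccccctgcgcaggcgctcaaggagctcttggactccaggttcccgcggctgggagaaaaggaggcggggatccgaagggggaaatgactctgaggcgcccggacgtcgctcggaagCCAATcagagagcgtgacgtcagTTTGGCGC
POLA1: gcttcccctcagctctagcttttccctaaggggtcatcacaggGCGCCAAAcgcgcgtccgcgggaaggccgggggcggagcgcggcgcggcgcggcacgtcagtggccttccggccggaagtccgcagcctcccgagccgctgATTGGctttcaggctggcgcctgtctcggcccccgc
RRM2: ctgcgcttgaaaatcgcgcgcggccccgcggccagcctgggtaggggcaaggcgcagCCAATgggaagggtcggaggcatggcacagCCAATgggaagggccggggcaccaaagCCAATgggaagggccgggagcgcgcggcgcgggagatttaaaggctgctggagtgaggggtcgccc
PCNA: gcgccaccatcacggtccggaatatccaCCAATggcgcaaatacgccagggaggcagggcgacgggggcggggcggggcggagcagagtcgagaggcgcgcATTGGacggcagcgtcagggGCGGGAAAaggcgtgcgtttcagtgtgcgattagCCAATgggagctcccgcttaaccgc
PRIM1: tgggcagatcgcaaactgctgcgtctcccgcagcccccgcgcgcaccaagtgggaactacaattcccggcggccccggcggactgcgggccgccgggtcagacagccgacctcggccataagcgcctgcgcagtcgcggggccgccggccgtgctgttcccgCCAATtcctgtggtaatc
RFC4: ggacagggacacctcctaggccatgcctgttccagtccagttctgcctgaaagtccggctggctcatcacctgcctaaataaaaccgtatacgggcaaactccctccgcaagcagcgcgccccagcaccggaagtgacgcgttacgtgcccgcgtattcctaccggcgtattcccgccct

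MCM6 held 4 overlapping E2F words in 2 identical clusters and 2 CCAAT boxes. DTL and POLA1 each held 1 E2F word and 1 CCAAT box, and PCNA 1 E2F word and 3 CCAAT boxes. RRM2, whose signal fell past 2-fold in T-47D cells, held 3 CCAAT boxes and no E2F word in these bases. PRIM1 held 1 CCAAT box, and RFC4 held neither word. MCM2 held 2 overlapping E2F words just after its start, outside the kind of stretch shown.

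**Figure D1:**
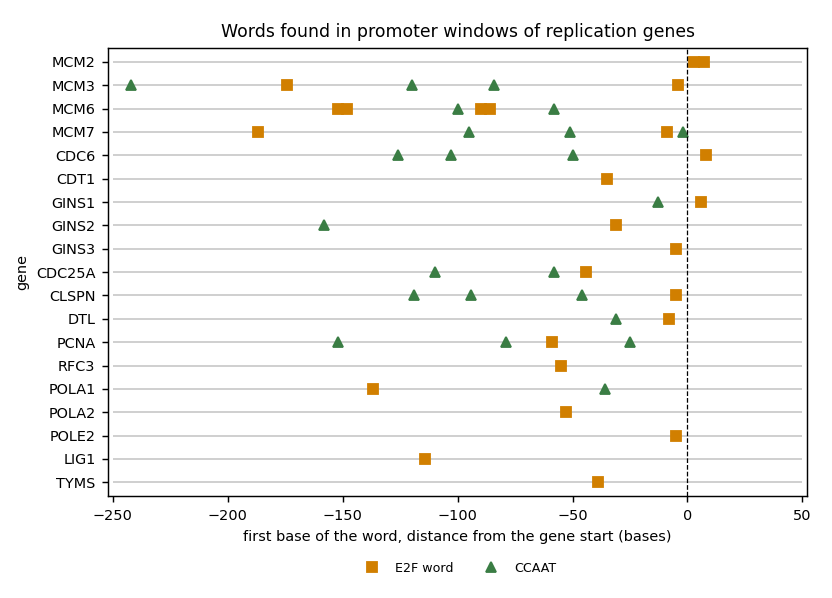
Positions of E2F words (squares) and CCAAT (triangles) in the promoter windows of the 19 replication genes with an E2F word, 1 window a gene. The horizontal axis gives the distance of the first base of the word from the gene start in bases, and most squares lie within 60 bases of the start, except at MCM3, MCM6, MCM7, POLA1 and LIG1, which have one farther upstream.

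In the presence of JPH203, most measured replication genes read below control in T-47D cells, and MCM and nucleotide supply genes were among the lowest. Of the 43 genes, 32 were measured in T-47D cells, 28 of them at 100 or more on control and JPH203 arrays alike and 4 (MCM5, CDC6, POLA1 and POLD3) on 1 array. Nearest to that minimum were CDC6 (97.7 and 103) and POLA1 (103 and 43.4) inside it, and CDC45 and MCM10 outside it, at 95.2 and 94.5 on the control array. The signal fell to 0.5 of control or less for 5 of the 32 (15.6%), MCM2, MCM4, RRM2, DTL and POLA1, against 3.91% of the 7338 genes measured in this line. POLA1 passed the minimum through its control array alone, and among the 28 members at 100 or more on both arrays 4 fell to 0.5 or less, against 2.42% of such genes. None rose 2-fold, against 2.89% of all genes. At 1.5-fold, 13 fell (40.6%, against 17.3% of all genes) and 3 rose (9.38%, against 12.3%). A ratio below 1 was found for 24 of the 32 (75.0%), against 53.7% of all genes, and the median ratio was 0.771 against 0.964. Ratios of all genes were spread widely between these arrays, with the central 95% between 0.464 and 2.06, so that of the members only MCM2, MCM4, RRM2, DTL and POLA1 lay outside that range.

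The same genes were close to control in MDA-MB-231 cells. There 42 of the 43 were measured, and 0 passed 2-fold in either direction, where 0.195% of the 7170 genes rose and 0.0697% fell. GINS4 alone fell past 1.5-fold (0.697% of all genes did). A ratio below 1 was found for 27 of the 42 (64.3%), against 51.1% of all genes, and the median ratio was 0.960 against 0.997. With scaling to the poly-A spike-ins 16 were below 1 and the median of the members, like that of all genes, lay above control. The members ranged from 0.635 for GINS4 to 1.35 for CDT1, and the central 95% of all genes from 0.761 to 1.37. The lines differed in the spread of all ratios as well, with an SD of the log2 ratio of 0.22 for MDA-MB-231 against 0.56 for T-47D cells.

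**Figure D2:**
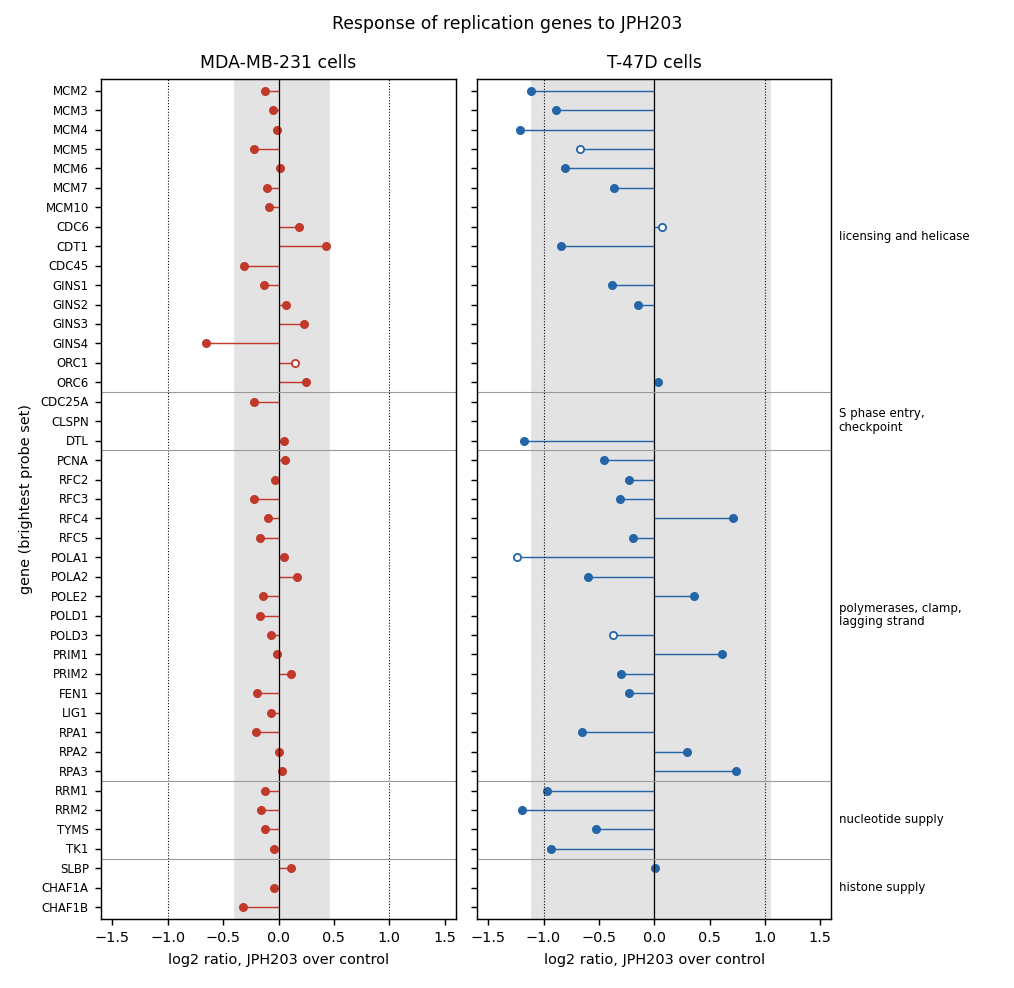
Log2 ratio of JPH203 over control for each gene in MDA-MB-231 (left) and T-47D cells (right), 1 array per condition. Filled points reached 100 on both arrays and open points on 1, the grey band holds the central 95% of all measured genes of that line, dotted lines mark 2-fold, and genes without a point were not measured. In MDA-MB-231 cells only GINS4 lies outside the band, and in T-47D cells MCM4, RRM2, DTL, POLA1 and, at its edge, MCM2 lie at or beyond it on the low side.

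MCM2 to MCM7 form the ring of the replicative helicase, and all 6 were below control in T-47D cells under each setting that gave them a value, 8 settings for MCM5 and 12 or 13 for the others. Their ratios ran from 0.432 to 0.779 with a median of 0.556, and 5 of the 6 fell past 1.5-fold. MCM4 gave 870.5 on the MDA-MB-231 control array, 863 with JPH203, 598 on the T-47D control array and 258 with JPH203. The T-47D JPH203 array was the low one, at a ratio of 0.432, while the MDA-MB-231 ratio was 0.991. MCM2 read 942 and 864 in MDA-MB-231 cells without and with JPH203 and 833 and 385 in T-47D cells. With JPH203 it was 2.16-fold lower in T-47D cells and at 0.917 of control in MDA-MB-231 cells.

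MCM3 gave 578 and 313 in T-47D cells against 1363 and 1314 in MDA-MB-231 cells, a T-47D ratio of 0.541. MCM6 gave 762 and 436 in T-47D cells against 1967 and 1982 in MDA-MB-231 cells, a T-47D ratio of 0.572. Both were thus lowest on the T-47D JPH203 array. MCM5 gave 155 and 97.6 in T-47D cells (0.629) against 473 and 405.5 in the other line, and its T-47D JPH203 signal was below 100. MCM7 was the member of the ring nearest control, with 352 and 274 in T-47D cells (0.779) and 1247 and 1162 in MDA-MB-231 cells (0.931). The MDA-MB-231 ratios of the 6 ran from 0.857 to 1.01.

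Among the loading factors, CDT1, which brings the MCM ring to the origin, was below control in T-47D and above it in MDA-MB-231 cells. Its signals were 609 and 339 in T-47D cells against 177 and 238 in MDA-MB-231 cells, without and with JPH203. It fell 1.80-fold in T-47D cells, whereas in MDA-MB-231 cells it read 1.35 times control, within the central 95% of all genes. CDC6, the ATPase that works with CDT1, gave 97.7 and 103 in T-47D cells and 583.5 and 662 in MDA-MB-231 cells. Both CDC6 ratios were within 1.5-fold. ORC6, a subunit of the origin recognition complex, gave 215 and 221 in T-47D cells and 359 and 426 in MDA-MB-231 cells, also within 1.5-fold.

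Of the GINS complex, part of the working helicase, 2 of 4 genes were measured in T-47D cells. GINS1 gave 677 and 520.4 there (0.769), and GINS2 gave 1624 and 1464 (0.902). Neither passed 1.5-fold. GINS4 stood lowest of all members in MDA-MB-231 cells, with 207.5 and 132 (0.635, at the 0.474 percentile of all genes), and was below 100 on both T-47D arrays.

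Of the S phase entry genes, DTL, which directs the destruction of CDT1 during S phase, was measured in both lines. DTL gave 263 and 116 in T-47D cells against 771 and 799 in MDA-MB-231 cells. It fell 2.26-fold with JPH203 in T-47D cells and stood at 1.04 of control in MDA-MB-231 cells. CDC25A, a phosphatase that activates CDK2, gave 261 and 224 in MDA-MB-231 cells, a ratio of 0.857.

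**Figure D3:**
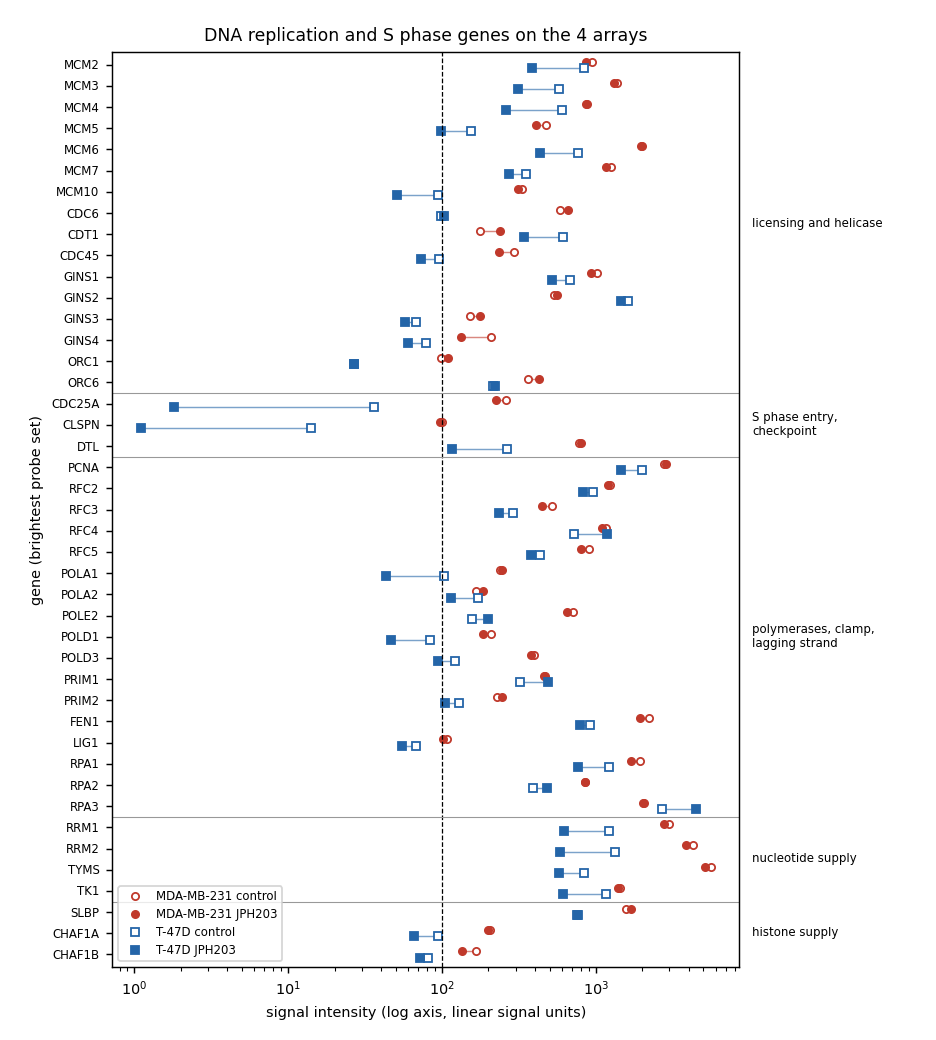
Signal of each gene on the 4 arrays on a log axis, with circles for MDA-MB-231 and squares for T-47D cells, open for control and filled for JPH203. The dashed line marks the minimum signal of 100. The filled squares of MCM2 to MCM7, DTL, RRM1, RRM2, TYMS and TK1 lie left of the open squares while the circles of each gene nearly coincide, and signals are not compared between genes because each probe set has its own response.

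The 4 nucleotide supply genes had the lowest median of the groups with more than 1 measured gene in T-47D cells. All 4 were below control under each setting that gave them a value, 12 or 13 a gene, with a median ratio of 0.519, and 3 of the 4 fell past 1.5-fold. RRM2, the small subunit of ribonucleotide reductase that is made in S phase, gave 1334 and 583 in T-47D cells against 4286 and 3828 in MDA-MB-231 cells. It was 2.29-fold lower with JPH203 in T-47D cells and at 0.893 of control in MDA-MB-231 cells. RRM1, the large subunit, gave 1209 and 618.5 in T-47D cells against 2999 and 2759 in MDA-MB-231 cells. Its T-47D ratio of 0.512 lay just short of 2-fold, against 0.920 in MDA-MB-231 cells.

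TK1, the thymidine kinase of the salvage route, gave 1156 and 607.5 in T-47D cells against 1437 and 1394 in MDA-MB-231 cells. TYMS, which makes dTMP and is the target of 5-fluorouracil, gave 831 and 579 in T-47D cells against 5589 and 5122 in MDA-MB-231 cells. The T-47D ratios were 0.526 for TK1, which passed 1.5-fold, and 0.696 for TYMS, which did not. The MDA-MB-231 ratios of the 4 genes ran from 0.893 to 0.971.

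Polymerase, clamp and lagging strand genes were divided in T-47D cells. Of 17 genes, 15 were measured, with a median ratio of 0.854. POLA1, POLA2 and RPA1 fell past 1.5-fold and RFC4, RPA3 and PRIM1 rose past it. No other member rose past 1.5-fold, and with scaling to the poly-A spike-ins the log2 ratios of these 3 were 0.07 for RFC4, 0.10 for RPA3 and -0.03 for PRIM1.

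POLA1 and POLA2 encode the catalytic and the B subunit of DNA polymerase alpha, and PRIM1 and PRIM2 the primase bound to it. POLA1 gave 103 and 43.4 in T-47D cells against 238 and 246 in MDA-MB-231 cells. Its T-47D ratio was 0.422, with a control signal barely above 100 and a JPH203 signal below it, so it is not read as a size. POLA2 gave 172 and 113.5 in T-47D cells (0.661) against 165 and 185 in MDA-MB-231 cells.

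PRIM1 gave 321 and 489 in T-47D cells against 465.5 and 461.5 in MDA-MB-231 cells. With JPH203 it read 1.53 times control in T-47D cells, but lay slightly below control when the arrays were scaled to the poly-A spike-ins. PRIM2 gave 129 and 105 in T-47D cells (0.810). Subunits of the one polymerase alpha-primase complex were thus found on both sides of control.

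RPA, which coats single-stranded DNA, was divided in the same way. RPA1, the large subunit, gave 1211 and 769 in T-47D cells against 1943 and 1684 in MDA-MB-231 cells, a T-47D ratio of 0.635. RPA3, the smallest subunit, gave 2684 and 4486 in T-47D cells against 2025 and 2064 in MDA-MB-231 cells, a T-47D ratio of 1.67. RPA2 read 390.0 and 478 in T-47D cells (1.23), on the other side of control when scaled to the poly-A spike-ins.

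PCNA, the sliding clamp, gave 1999.7 and 1462 in T-47D cells against 2757 and 2863 in MDA-MB-231 cells. Its T-47D ratio of 0.731 did not pass 1.5-fold, but stayed below 1 under each of the 12 settings that gave it a value. Of the clamp loader, RFC4 gave 716 and 1171 in T-47D cells against 1164 and 1092 in MDA-MB-231 cells, a T-47D ratio of 1.64. RFC2, RFC3 and RFC5 ran from 0.807 to 0.876 in T-47D cells, so that only 1 of the 4 subunits measured passed 1.5-fold.

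FEN1, the nuclease that trims Okazaki fragments, gave 916 and 782 in T-47D cells (0.854) against 2214 and 1939 in MDA-MB-231 cells. POLE2, a subunit of the leading strand polymerase epsilon, gave 155 and 199 in T-47D cells (1.28, below 1 when scaled to the poly-A spike-ins) against 712.5 and 646 in MDA-MB-231 cells. By their brightest probe sets neither passed 1.5-fold in either line. A second probe set of FEN1 did fall past 1.5-fold in T-47D cells, at 0.643 (436 and 280). POLD3, a subunit of polymerase delta, gave 122 and 93.9 in T-47D cells (0.772).

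Of the histone supply genes, SLBP, which binds the stem-loop of histone mRNA, gave 756.5 and 760 in T-47D cells against 1560.2 and 1691 in MDA-MB-231 cells. Its T-47D ratio was 1.00. CHAF1A and CHAF1B, subunits of the chromatin assembly factor that places histones behind the fork, gave 0.972 and 0.803 in MDA-MB-231 cells. By their brightest probe sets, the 11 members below 100 on both T-47D arrays were MCM10, CDC45, CDC25A, GINS3, GINS4, ORC1, POLD1, LIG1, CHAF1A, CHAF1B and CLSPN. Of these, CLSPN was below 100 on all 4 arrays, ORC1 reached 100 with JPH203 alone in MDA-MB-231 cells (98.3 and 109), and the others had MDA-MB-231 ratios from 0.635 for GINS4 to 1.17 for GINS3. A dimmer probe set of CHAF1A reached the minimum on the T-47D control array alone, at 101.0 and 61.1.

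Several genes have more than 1 probe set, and these were compared. In T-47D cells, 13 members had at least 2 measured probe sets, and for 9 of them all lay on the same side of control. RFC2, RFC3, RFC5 and CDC6 had probe sets on both sides. MCM4 had 3 measured probe sets, at 0.432, 0.333 and 0.350. The second probe set of DTL went from 181.5 to 58.0 and that of RRM2 from 642 to 263. TK1 had a second probe set at 0.409 (1014 and 414), past 2-fold, and TYMS one at 0.912 (213 and 194), nearer to control than its brightest.

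**Figure D4:**
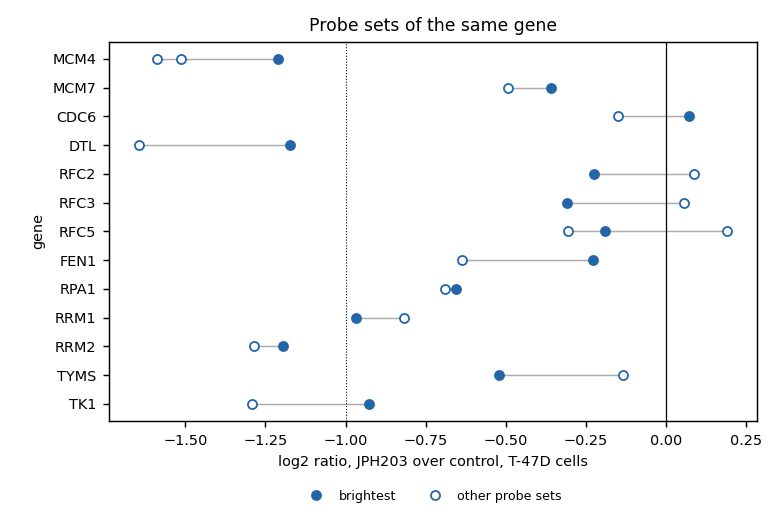
Log2 ratio of JPH203 over control in T-47D cells for the 13 genes with at least 2 measured probe sets. Filled points are the brightest probe set and open points the others, and the dotted line marks a 2-fold fall. All points of MCM4, DTL and RRM2 lie beyond it, and those of CDC6, RFC2, RFC3 and RFC5 lie on both sides of 0.

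Genes with and without an E2F word were set side by side as a description. In T-47D cells the 15 measured genes with a word had a median log2 ratio of -0.52, and 13 of them were below control and 7 fell past 1.5-fold. The 12 without a word had a median log2 ratio of -0.23, and 8 were below control and 4 fell past 1.5-fold. Of all genes measured there, 53.7% were below control and 17.3% fell past 1.5-fold. In MDA-MB-231 cells the order was the other way, with a median log2 ratio of -0.02 and 9 of 18 below control with a word, and -0.09 and 14 of 18 without. Of all genes, 51.1% were below control in that line. MCM4, MCM5, GINS4, POLD3, RPA2 and RPA3 had no promoter entry and are in neither set. Among these, MCM4 was at 0.432 and RPA3 at 1.67 of control in T-47D cells.

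A few measures of the arrays moved along with the T-47D response. The ACTB 3′ to 5′ ratio and the spike-in signal given above were higher on its JPH203 array, while the GAPDH 3′ to 5′ ratio was lower there. Over all 7336 genes with a length the T-47D ratio was lower for longer genes (Spearman's rho -0.299, a description across genes of the same arrays, which are not independent). Over the 32 measured members the same rho was -0.191. With the length trend removed, 6 members, POLA1 not among them, fell past 2-fold and the members' median log2 ratio was -0.48. With scaling to the poly-A spike-ins, the median log2 ratio of all genes moved from -0.05 to -0.70 and that of the members from -0.38 to -1.02, the distance between them being -0.32 both times. The part of RNA integrity in the result was not tested.

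Other genes of the pathway, 64 by name and 62 with a probe set, were near the rest of the array in T-47D cells. Of 42 measured, 21 were below control, the median log2 ratio was -0.01, 6 fell past 1.5-fold (14.3%, against 17.3% of all genes) and 5 rose (11.9%, against 12.3%). UHRF1, which brings the maintenance methyltransferase to new DNA, was the 1 that passed 2-fold in T-47D cells, with 480.2 and 148 in T-47D cells (0.308) and 1719 and 1869 in MDA-MB-231 cells. The other genes past 1.5-fold are named with their values in view. Those that fell were the histone chaperones ASF1B (0.524, with a JPH203 signal below 100) and NASP (0.533), the topoisomerase TOP1 (0.554), the kinase CDK2 (0.648) and the dNTP hydrolase SAMHD1 (0.652). Those that rose were ORC3 (1.92) and ORC4 (1.94) of the origin recognition complex, TIPIN (1.81) of the fork protection complex, the thymidylate kinase DTYMK (1.66) and the histone chaperone ASF1A (1.52). With scaling to the poly-A spike-ins none of those 5 stayed past 1.5-fold, with log2 ratios of 0.30 for ORC3, 0.31 for ORC4, 0.21 for TIPIN, 0.09 for DTYMK and -0.04 for ASF1A. In MDA-MB-231 cells 54 were measured and 0 passed 2-fold, and POLD4, a small subunit of polymerase delta, read highest at 1.87 (149 and 278.5) and is likewise named with its value in view.

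Without JPH203, replication genes were higher in MDA-MB-231 than in T-47D cells. Each control array is also the denominator of its line's response, so this comparison is not independent of those above. Of the 43 genes, 41 were measured, and for 24 the MDA-MB-231 signal was 2-fold or more above the T-47D signal (58.5%), against 23.5% of the 8294 genes measured. At least 2-fold higher in T-47D cells were 2 members, CDT1 and GINS2 (4.88%, against 24.3% of all genes). In all, 37 of the 41 were above 1, against 4150 of the 8294 genes, and the median log2 ratio was 1.11 against 0.00 for all genes. These counts include 10 members that passed the minimum through the MDA-MB-231 array alone, where they were high. Among the 31 that reached 100 on both arrays, 15 were past 2-fold on the MDA-MB-231 side (against 16.3% of such genes) and 2 on the T-47D side (against 16.1%), and the median log2 ratio was 0.85 against 0.02.

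TYMS showed the largest control ratio among members measured on both arrays, with 5589 in MDA-MB-231 cells against 831, a 6.72-fold difference. POLE2 was 4.58-fold higher there (712.5 and 155), and MCM7 3.54-fold (1247 and 352). RRM2 was 3.21-fold higher (4286 and 1334) and DTL 2.93-fold (771 and 263). All 5 were thus lower in T-47D cells before any JPH203, though DTL stayed past 2-fold neither with its second probe set nor with the mean of its probe sets.

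Some members were alike in the lines before treatment. MCM2 differed 1.13-fold between the control arrays and TK1 1.24-fold, although both fell past 1.5-fold with JPH203 in T-47D cells. CDT1 was 3.45-fold higher in T-47D cells (609 against 177) and GINS2, a GINS subunit, 3.03-fold (1624 against 537). The CDT1 value rests on 1 probe set, since its other one was below 100 on both control arrays (56.4 in T-47D and 42.9 in MDA-MB-231 cells). With scaling to the poly-A spike-ins, which moved the median log2 ratio of all genes from 0.00 to 1.70, GINS2 read slightly higher in MDA-MB-231 cells and CDT1 was no longer 2-fold apart. MCM10, CDC6, CDC45, GINS3, GINS4, CDC25A, POLD1, LIG1, CHAF1A and CHAF1B reached 100 on the MDA-MB-231 control array alone by their brightest probe sets, and those ratios were not read as sizes. Another probe set reached 100 on both control arrays for CDC6 (624 and 117) and CHAF1A (177 and 101.0). All 17 members with at least 2 probe sets measured had them on the same side of 1. Of the other pathway genes 54 were measured, 40 of them at 100 or more on both control arrays and 14 on 1 alone. MDA-MB-231 cells were past 2-fold above T-47D cells for 27 of the 54, against 23.5% of all genes. They were past 2-fold below them for 7 of the 54, against 24.3%. Both counts include genes that passed the minimum through 1 array alone, where they were high.

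**Figure D5:**
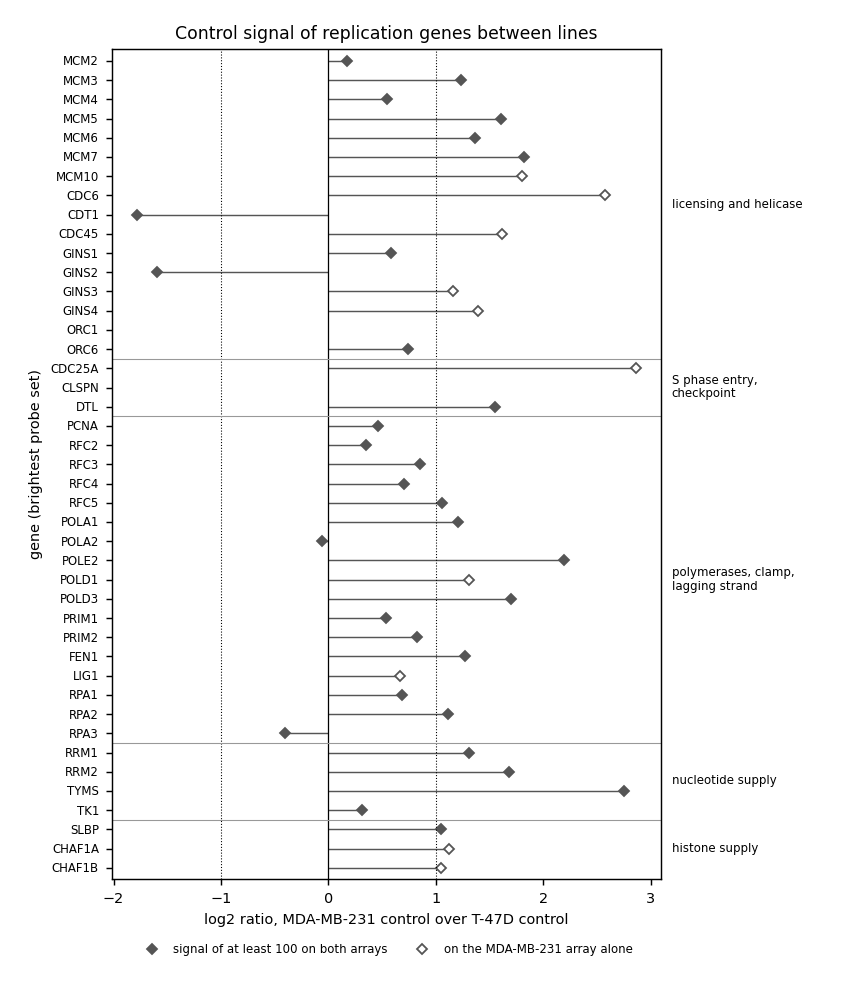
Log2 ratio of the MDA-MB-231 control array over the T-47D control array for each gene. Filled points reached 100 on both arrays and open points on the MDA-MB-231 array alone, and dotted lines mark 2-fold. Most points lie to the right of 0, and CDT1 and GINS2 lie beyond 2-fold to the left, which scaling to the poly-A spike-ins undid for both.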

How the data were processed

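RNA of both cell lines, each with JPH203 or Captisol, was hybridised to Affymetrix U133 Plus 2.0 arrays, 1 array per condition. For each probe set the authors deposited a linear signal intensity, made with GCOS by the submitters' processing notes. Its version and settings are not given in the sources used here. No detection call entered. The platform annotation gives 1 gene for 41097 of 54675 probe sets, several for 1801 and none here for 11777. Names were matched to RefSeq (GRCh38.p14) by gene identifier for 41043 probe sets, and 0 symbols changed.

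The members and the gene lists were chosen with earlier results of these data known. A gene was read from its brightest probe set naming it alone, with a minimum signal of 100 on 1 array of the comparison. The 2 responses are JPH203 over control in each line, and the third comparison is MDA-MB-231 control over T-47D control. A gene was called at a ratio of 2 or more, or of 0.5 or less, with 1.5-fold as a second step, and no test was possible with 1 array per condition. All members may be named, and other pathway genes only where past 2-fold, except those marked as named with their values in view. The 27 other pathway genes past 2-fold on the MDA-MB-231 side of the control arrays were counted, and of them only those that meet the rule or the mark in another comparison are named. The calling code was run on simulated arrays with 3-fold changes planted in bright genes and with less spread than the data. That run checks the code and not the calls of these arrays. Alternatives were median centring, quantile normalization, loess (span 0.4), scaling to poly-A spike-ins, a pseudocount of 16, other minimum signals (50, 200, 100 on both arrays, none), the mean of probe sets, the second brightest, no _x_at or _s_at probe sets, removal of the gene length trend, and 1.5-fold and 3-fold thresholds. The number of arrays limits the precision. Python 3.11.15, numpy 2.4.6, pandas 2.3.3, statsmodels 0.14.6 and matplotlib 3.10.9 were used.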

Additional observations from a re-analysis of the deposited data

Results flagged for a closer look

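In 7 members the JPH203 response was past 1.5-fold in T-47D cells and on the other side of control in MDA-MB-231 cells. The difference between the lines was not tested, since each ratio comes from 1 array a condition. The log2 ratio in MDA-MB-231 minus that in T-47D cells was 1.28 for CDT1, 1.23 for DTL, 0.82 for MCM6 and 0.76 for POLA2, all lower with JPH203 in T-47D cells. For POLA1 it was 1.29, which is not read as a size, since its T-47D JPH203 signal was below 100 and its T-47D log2 ratio went from -1.24 to -0.72 with loess. It was -0.80 for RFC4 and -0.62 for PRIM1, both higher with JPH203 in T-47D cells. CDT1 had the MDA-MB-231 ratio farthest from control of the 7, at 1.35. The others ran from 0.938 for RFC4 to 1.12 for POLA2 in that line. All 7 lay within the central 95% of all genes there, 0.761 to 1.37. Since 51.1% of all genes were below control in MDA-MB-231 cells, a side this near control is not read as a direction. The share of all genes with such opposite sides was not counted. With scaling to the poly-A spike-ins, RFC4 and PRIM1 read slightly above control in MDA-MB-231 cells and PRIM1 slightly below it in T-47D cells.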

How the results depend on the processing

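No paired analysis was possible because each condition has 1 array and the labels give no shared replicate numbers. In T-47D cells the count of members past 2-fold was 5, and became 18 with scaling to the poly-A spike-ins (where 29.9% of all genes fell past 2-fold), 16 at 1.5-fold (13 down and 3 up) and 0 at 3-fold. The median log2 ratio there was -0.38, and became -1.02 with poly-A scaling (all genes -0.70) and -0.66 with the second brightest probe set, which 14 members have. In MDA-MB-231 cells the median was -0.06, and became 0.051 with poly-A scaling (all genes 0.11 rather than -0.01) and -0.031 with the mean of probe sets. The count there was 0, and 1 at 1.5-fold. Between the control arrays the count was 26, and became 17 with 100 on both arrays, 10 with the second brightest probe set, 12 at 3-fold and 39 with poly-A scaling, all higher in MDA-MB-231 cells (as were 69.2% of all genes). The median there was 1.11, and became 2.81 with poly-A scaling (all genes 1.70), under which the GINS2 log2 ratio turned to 0.10. The T-47D call of POLA1 was lost with loess and with removal of the length trend. The cause of these moves was not tested beyond the construction of each alternative. Values near a signal of 100 lie close to background, and with single arrays a difference between arrays and one between conditions cannot be told apart.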

Other observations

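Genes of replication-dependent histones, which belong to the list of other pathway genes, were on the opposite side from most replication genes on the control arrays. All 6 of them were at least 2-fold higher in T-47D than in MDA-MB-231 cells, against 24.3% of all genes. The histone variants H2AX, H2AZ1 and H2AZ2 of the same list lay on the MDA-MB-231 side, at 1.21, 1.67 and 1.16 times the T-47D control. H1-2, a linker histone, gave 517 on the MDA-MB-231 control array and 2555 on the T-47D control array, and H2AC6, a histone H2A, gave 199.5 and 1398. H2BC12 gave 2197 and 6160.1, and H2BC5 gave 498 and 1787. H2BC21 and H4C8 were below 100 in MDA-MB-231 cells, at 25.3 and 27.2, and gave 439 and 406 in T-47D cells. These 2 genes thus passed the minimum through the T-47D array alone, where they were high. With scaling to the poly-A spike-ins the log2 ratio of MDA-MB-231 over T-47D control turned to 0.21 for H2BC12, was -0.14 for H2BC5 and -0.61 for H1-2, and stayed past 2-fold for H2AC6, H2BC21 and H4C8. The seventh gene higher in T-47D cells was POLD4, at 149 and 676, and its log2 ratio was -0.48 with that scaling. With JPH203, H1-2 read 3558 in T-47D cells and 483 in MDA-MB-231 cells, within 1.5-fold of control in both lines. Histone genes have near-identical copies, so a probe set may read more than the gene it names. These probe set signals are therefore not read as amounts of histone mRNA in S phase.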
